A study of Bos taurus with 33 samples.

Results

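The cytosolic ribosomal proteins are the protein components of the ribosome that translates nuclear-encoded mRNA. Their transcripts were taken from the oocyte and cumulus cell (CC) tables as every gene whose symbol starts with RPL or RPS and a digit, with RPLP and a digit, or is RPSA, leaving out the RPS6K kinases, and the tables were joined by Ensembl identifier. This gave 99 gene rows of the 17543 genes listed in either table, under 81 distinct symbols. Of these rows, 57 carry symbols of large subunit proteins, 3 those of the acidic stalk proteins (RPLP0, RPLP1 and RPLP2) and 38 those of small subunit proteins. The remaining row, RPS19BP1, was taken by the rule although it encodes a binding partner of RPS19 and no part of the ribosome.

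The study sequenced RNA of bovine cumulus-oocyte complexes aspirated from the dominant follicle of Hereford-Angus crossbred, suckled postpartum beef cows. Each library was a pool of the oocytes, or of the CC, of 4 complexes, and there were 6 oocyte and 6 CC pools from small follicles, 6 and 6 from large follicles, and 4 oocyte and 5 CC pools from spontaneous follicles. In every group the cows received gonadotropin-releasing hormone (GnRH) on day -9 and prostaglandin F2 alpha on day -2. Cows of the small (largest follicle at most 11.7 mm) and large (at least 12.7 mm) classifications had shown no estrus and received a second GnRH injection on day 0, which induced the gonadotropin surge, whereas cows of the spontaneous classification showed estrus, had their own surge, did not receive that injection and had follicles of 11.7 to 14.0 mm. Complexes were collected about 20 h after GnRH or estrus by the sample labels and about 23 h by the protocol. The spontaneous classification thus differs from the other two in estrus, in the source of the surge and in the second injection together, and its follicles were of another size range, above that of the small and partly below that of the large classification, and these cannot be told apart here. A pool mixes complexes of several cows, so p-values measure the spread between pools and not between animals.

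A ribosome is built from ribosomal RNAs and a fixed set of proteins, nearly all in equal copy number, which are assembled in the nucleolus with the help of a large set of assembly factors. Ribosomal protein mRNAs start with a terminal oligopyrimidine (TOP) tract, through which the mTOR pathway and the RNA-binding protein LARP1 set how strongly they are translated. A fully grown oocyte transcribes little and relies on ribosomes and mRNAs stored during its growth. The surrounding CC are somatic cells and keep transcribing up to ovulation. Per the study, the connections that couple them to the oocyte are disrupted at the gonadotropin surge, which preceded collection here.

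The deposited values were CPM, the reads of a gene divided by all reads on genes of its library and scaled to the same total in every library, and whole reads could be recovered from them. Oocyte pools held 7664375 to 17934916 reads and CC pools 1911600 to 5772431, with small replicate 3 the shallowest library of each cell type. Oocyte markers such as GDF9 and ZP2 gave sums of 8841 to 12843 CPM in oocytes and of at most 6.76 CPM in CC. Cumulus markers gave sums of 3123 to 8345 CPM in CC and of 422 to 1013 CPM in oocytes, where HAS2 and STAR made up much of the sum. Transcripts of the mitochondrial genome took 12.6% to 44.0% of the reads of CC pools, the highest share in small replicate 3, and 0.85% to 5.0% of those of oocyte pools.

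Of the 99 rows, 85 passed the low-value filter in oocytes (4 or more pools at 5 CPM or above) and 89 in CC (5 or more pools at that level). The 4 rows that passed in CC only were second copies under the symbols RPL23A, RPL8, RPS27L and RPS3A, and 10 rows passed in neither table. Of 77 ribosomal proteins that have a symbol of this form, 75 had at least 1 row and 73 had a row past the filter in each table. RPL22 and RPL41 had no row. All 4 rows of RPL39 and the row of RPS29 stayed under the filter in both, with RPS29, a zinc-binding protein of the small subunit, between 0 and 1.84 CPM in oocyte pools and between 0.39 and 9.42 CPM in CC pools. Ribosomal protein genes have many near-identical copies in mammalian genomes, and 30 of the rows shared 12 symbols. The leading row held 50.4% of the summed mean CPM of the 3 RPL36A rows in oocytes and 58.2% in CC, so reads of this protein in particular may be split between copies, and how reads that match several places were counted is not given in the sources used here. No gene length was at hand, and CPM is not divided by length, so values of different genes are compared below only as shares of reads.

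The summed ribosomal protein reads took a far smaller share of the oocyte libraries than of the CC libraries. In oocytes the share ran from 0.73% to 1.57% in small pools (median 0.90%) and from 0.74% to 1.16% in large pools (median 1.08%), and the 4 spontaneous pools held 1.16%, 0.94%, 1.73% and 1.43%. In CC it ran from 4.79% to 5.22% in small pools (median 5.07%) and from 4.59% to 6.25% in large pools (median 4.95%), and the 5 spontaneous pools held 3.95%, 4.91%, 5.03%, 5.25% and 6.61%. Every CC pool lay above every oocyte pool, while the 3 follicle classifications overlapped within each cell type. With mitochondrial transcripts left out of the totals, the CC medians were 6.55%, 6.46% and 6.13% for small, large and spontaneous pools. These are shares of the reads of bulk pools, in which fewer cells of a type and less RNA per cell cannot be told apart, and the 2 tables were normalized separately, so no test was run between them.

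**Figure D1:**
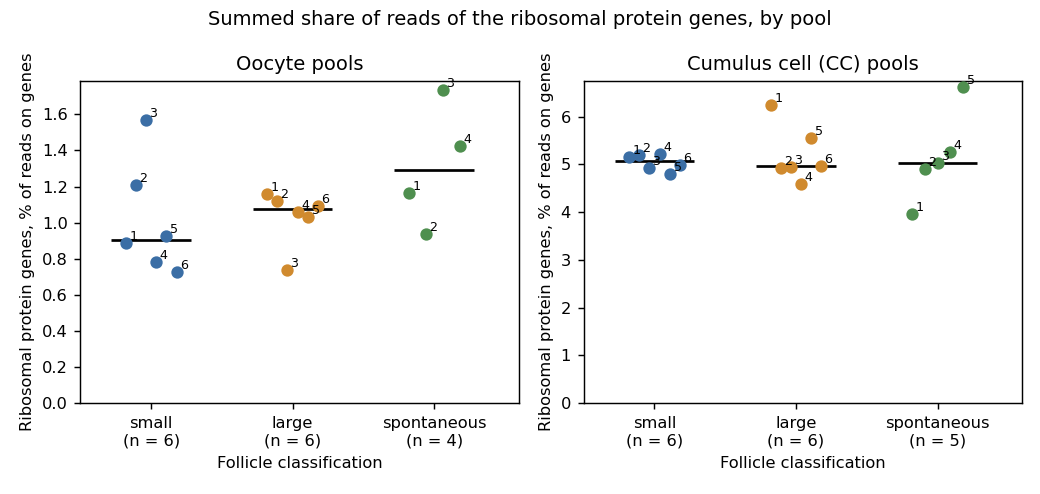
Summed ribosomal protein transcripts as percent of all reads on genes (vertical axis), 1 point per pool, by cell type and follicle classification, with black lines at the group medians. Oocyte pools lie between 0.73% and 1.73% and CC pools between 3.95% and 6.61%.

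The split between the subunits was alike in the cell types. Large subunit rows took 54.3% to 59.3% of the ribosomal protein reads of oocyte pools and 52.7% to 56.8% of those of CC pools. Small subunit rows took 37.8% to 41.8% in oocytes and 40.3% to 44.2% in CC. The stalk proteins, which recruit the translation factors that hydrolyse GTP, took 2.78% to 4.23% and 2.76% to 3.81%. By reads, RPL10, a protein that joins the large subunit late in its maturation, led in both cell types, with a mean of 672 CPM in oocytes and 3205 CPM in CC. RPS2, RPL4 and RPL19 were also among the 5 most read rows in oocytes (486, 361 and 349 CPM), and RPL18 and RPL19 in CC (1486 and 1379 CPM). The 5 leading rows together held 20.2% of the ribosomal protein reads in oocytes and 18.5% in CC.

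Of the 85 rows retained in both tables, 83 had the higher mean in CC, and in 75 every CC pool lay above every oocyte pool. Among all 8083 transcripts retained in both tables, 12.7% had all CC pools above and 22.5% all CC pools below, and no ribosomal protein row was in the latter state. The median difference in mean log2(CPM + 1), CC minus oocytes, was 2.46 over the members (quartiles 1.98 and 2.92) and -0.13 over all 8083. It was 2.56 for the large subunit, 2.40 for the small subunit and 2.24 for the stalk. Across the 85 rows the mean log2 levels of the cell types were correlated (Pearson r 0.84, Spearman rho 0.80), a description over genes that share their libraries and their lengths.

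The largest gaps belonged to RPL9, RPL23, RPL32, RPS3A and RPS18. RPL9, a large subunit protein near the base of the stalk, ran from 4.25 to 134 CPM in oocyte pools and from 440 to 920.5 CPM in CC pools, with means of 47.8 and 679 CPM, a 14.2-fold difference. RPL23 averaged 58.4 CPM in oocytes and 650 CPM in CC, and RPL32, also of the large subunit, 60.7 and 674 CPM. RPS3A averaged 123 and 1283 CPM, and RPS18, which lies at the contact of the subunits in the head of the small one, 40.3 and 353 CPM. No oocyte pool reached the lowest CC pool for any of these 5 rows. RPS2, at the entry of the mRNA channel, had a small gap for a highly read member, with 324 to 581 CPM in the 16 oocyte pools against 771 to 1487 CPM in the 17 CC pools (means 486 and 1080 CPM).

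**Figure D2:**
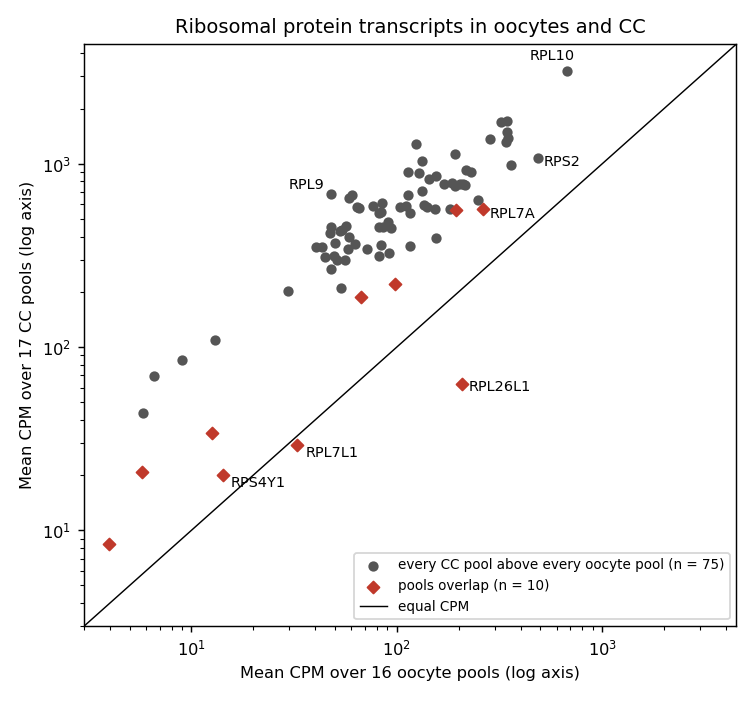
Mean CPM of each ribosomal protein row in oocyte pools (horizontal axis) against CC pools (vertical axis), both on log scales, 1 point per row retained in both tables, with the line of equal CPM, and red diamonds for the 10 rows whose CC and oocyte pools overlapped. The points lie above the line except RPL26L1, at 208 and 62.7 CPM, and RPL7L1, which lies near it at 32.6 and 29.1 CPM.

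RPL26L1 (ENSBTAG00000015099), a near-identical paralog of the large subunit protein RPL26, ran against the other members. Its level was 208 CPM ± 61.5 (SD, n = 16) in oocyte pools and 62.7 CPM ± 12 (SD, n = 17) in CC pools. Small oocyte pools ran from 81.7 to 282 CPM (median 216), large oocyte pools from 143 to 305 CPM (median 195), and spontaneous ones from 164 to 295 CPM. CC pools ran from 45.6 to 84.7 CPM, and only the lowest oocyte pool fell within their range. RPL26 itself averaged 56.4 CPM in oocytes and 455 CPM in CC. RPL26L1 reads thus made up 60.3% to 88.2% of the reads of the pair in small oocyte pools, 73.2% to 86.2% in large ones and 65.1% to 87.9% in spontaneous ones, and 9.42% to 17.8% in CC pools. The order of the genes was therefore reversed between the cell types in every pool, by reads.

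The ratio of a paralog to its parent gene is taken within a library, after 1 is added to each CPM. Library totals therefore nearly cancel in it, and gene length nearly cancels when the ratio is compared between cell types. The added 1 weighs more on low rows such as RPS27L and RPS4Y1, which fell to 2.88 and 2.27 CPM in small oocyte pools. Of 9 paralog pairs listed for this purpose, 4 had both genes listed and at least 1 retained, and these 4 were compared by a two-sided permutation test with 100000 resamples, adjusted over the 4 pairs. The mean log2 ratio of RPL26L1 to RPL26 was 1.94 ± 0.77 (SD) in the oocyte pools and -2.83 ± 0.35 (SD) in the CC pools, a difference of 4.77. RPL7L1, whose yeast relative is a ribosome assembly factor, had a log2 ratio to RPL7 of -2.32 ± 0.71 in oocytes and -4.85 ± 0.26 in CC, a difference of 2.53. In both pairs every oocyte pool lay above every CC pool. The ratio of RPS27L, a p53-responsive paralog, to RPS27 was -3.30 ± 0.97 in oocytes and -4.94 ± 0.45 in CC, a difference of 1.64, and the pools overlapped. The row named RPS4Y1 had a ratio of -3.51 ± 0.93 to RPS4 in oocytes and of -4.86 ± 0.56 in CC, a difference of 1.35, again with overlap. Its own mean was also lower in oocytes, 14.2 CPM against 20.1 CPM in CC, and RPS4 averaged 141 and 577 CPM. The adjusted permutation p was 2e-05 for each pair, the smallest value these resamples can give. Per the study's methods CC pools came from the same complexes as oocyte pools, but the labels do not say which pools correspond, so the test treats all pools as independent. RPS4Y1 is the name of a Y-linked gene in humans, the animals here were cows, and the tables give the row no position.

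The differences held within each follicle classification for RPL26L1 and RPL7L1. For RPL26L1 they were 4.62 among small, 5.03 among large and 4.65 among spontaneous pools, with exact permutation p, adjusted over the 4 pairs, of 0.00433, 0.00433 and 0.0106. For RPL7L1 they were 2.17, 2.92 and 2.52, with the same adjusted exact permutation p values. The level of RPL7L1 itself was nearly equal in the cell types, 32.6 CPM in oocytes and 29.1 CPM in CC, while RPL7, its parent, averaged 155 and 862 CPM. RPL22L1 behaved otherwise, with 59.1 to 128 CPM in CC but 0.16 to 18.6 CPM in oocytes, and no row of its parent to set beside it.

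**Figure D3:**
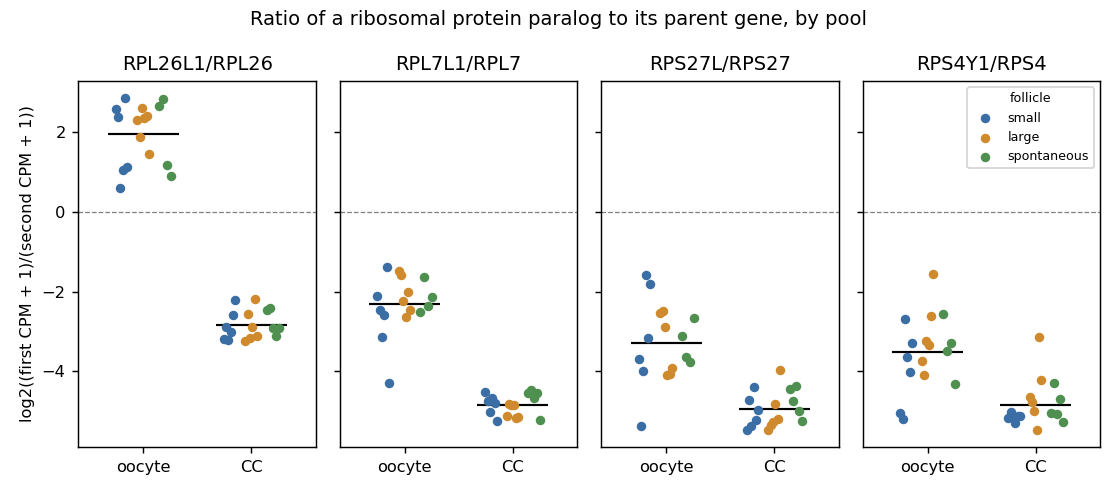
Log2 ratio of paralog to parent gene within each pool (vertical axis) for 4 pairs, 1 point per pool, oocytes beside CC, with black lines at the means. The oocyte points of RPL26L1/RPL26 and RPL7L1/RPL7 lie wholly above the CC points, and those of RPS27L/RPS27 and RPS4Y1/RPS4 overlap them.

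Genes of the same machinery outside the symbol rule were read from lists. FAU, which encodes a small subunit protein fused to a ubiquitin-like one, and the 40S-bound scaffold RACK1 also had the higher mean in CC. RACK1 averaged 147 CPM in oocytes and 946 CPM in CC, without overlap, whereas FAU averaged 125 and 201 CPM with overlap. Of 13 further TOP mRNA rows, of which TPT1 holds a pair, 12 had the higher mean in CC and 9 did so in every pool, with a median log2 difference of 2.04. Over all 8083 transcripts, 3818 had the higher mean in CC and 12.7% had all CC pools above. The elongation factor gene EEF1A1 averaged 554 CPM in oocytes and 1915 CPM in CC, and EIF3E had the opposite direction, with a log2 difference of -0.30.

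Ribosome assembly factors had mostly the reverse pattern. Of 35 such transcripts, 26 had the lower mean in CC and 17 did so in every pool, none had all CC pools above, and the median log2 difference was -1.26. Over all 8083 transcripts, 4265 had the lower mean in CC and 22.5% had all CC pools below. LTV1, which escorts the small subunit precursor, averaged 460 CPM in oocytes and 39.5 CPM in CC. NMD3, the export adaptor of the large subunit, averaged 353 and 28.3 CPM, and NPM1, the abundant nucleolar protein nucleophosmin, 1257 and 525 CPM. EIF6, which keeps large subunits from joining early, had the opposite direction at 7.85 and 39.5 CPM. The mitochondrial ribosomal proteins, which serve the separate ribosome of that organelle, had the higher mean in CC for 36 of 72, with a median log2 difference of -0.01. Of these 72, 3 had all CC pools above and 13 all CC pools below the oocyte pools. Both counts are below the shares over all transcripts, 12.7% above and 22.5% below. Of 7 regulators of TOP mRNAs retained in both tables, 4 had the higher mean in CC, none without overlap, with LARP1 at 93.0 CPM in oocytes and 191 CPM in CC and MTOR at 197 and 81.9 CPM. EIF4EBP1, named here after its values were seen, had the largest log2 difference of the 7, 4.69. It averaged 9.46 CPM in oocytes (0 to 73.1) and 126 CPM in CC (48.9 to 298).

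The members varied together among oocyte pools. Small replicate 3 and spontaneous replicates 3 and 4 held the highest value of 70 of the 85 retained rows, and small replicates 4 and 6 and large replicate 3 held the lowest value of 65. These pools were picked after their values were seen, and highest and lowest values were not counted over all transcripts. In spontaneous replicate 3, 79 rows lay above their own median over pools, by 0.73 log2 units at the median row, and in large replicate 3 only 8 did. Over all 10076 retained transcripts the share above the median was 54.5% and 49.7% in these libraries. The SD within a follicle classification was 0.58 log2 units at the median member and 0.45 at the median of other transcripts of like CPM. In CC it was 0.28 for members and 0.36 for others. Joint shifts were also seen among CC pools, again picked after their values were seen. In spontaneous replicate 5 and large replicate 1, 83 and 79 of the 89 retained rows lay above their own median. In spontaneous replicate 1 only 13 did, and it held the lowest value of 46. Over all 9712 CC transcripts these shares above the median were 53.8%, 42.3% and 52.9%. RPS2 was the steadiest member in oocytes, with an SD of 0.22, and RPL7 in CC, with an SD of 0.18.

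Transcripts listed as cumulus markers were present in oocyte pools in amounts that differed between pools. The summed CPM of 7 cumulus markers, left after HAS2 and STAR were set aside because their levels were higher in oocytes (a choice made after their values were seen), is given here as a percent of its median in CC pools, 4513 CPM. It ran from 0.45% to 6.12% in small oocyte pools (median 1.23%) and from 0.23% to 8.41% in large ones (median 1.57%), and was 1.27%, 3.26%, 4.82% and 1.45% in the spontaneous pools. Small replicate 3, at 6.12%, had the highest ribosomal protein share of its group, 1.57%. Small replicates 6, 4, 5, 1 and 2 stood at 0.45%, 0.60%, 1.16%, 1.29% and 2.04%. Their ribosomal protein shares were 0.73%, 0.78%, 0.92%, 0.88% and 1.21%. Spontaneous replicate 3, at 4.82%, had the highest share of all oocyte pools, 1.73%, and spontaneous replicate 2, at 3.26%, the lowest of its group, 0.94%. Large replicate 1, at 0.23%, had the highest share of its group, 1.16%. Large replicate 6, at 8.41%, had a share of 1.09%, near the median of its group. Neither the source of these marker reads, CC or oocyte, nor their part in the differences between follicle classifications was tested.

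Comparing small with large follicles asked whether follicle size at an induced surge is accompanied by a different transcript abundance. In oocytes no ribosomal protein met the call, a nominal limma p of at most 0.01 that also held, in the same direction, without small replicate 3, where 0.655% of the 10076 tested transcripts met it. No member had an unadjusted limma p under 0.05 either, where 2.58% of all transcripts had such a p and a higher mean in large pools and 1.53% had it with a lower one, and edgeR and DESeq2 on the recovered reads called 0 as well. The mean was higher in large pools for 59 of 85 members and for 55.5% of all transcripts. The median log2 fold change, large minus small, was 0.09 over the 85 members and 0.05 over all transcripts, and it was -0.003 by edgeR and -0.010 by DESeq2. RPS14 had the smallest p. This protein of the small subunit platform ran from 8.75 to 119 CPM in small pools (median 29.8) and from 39.5 to 89.5 CPM in large pools (median 55.1), a log2 fold change of 0.84 with nominal limma p = 0.057 and exact permutation p = 0.411. The classes overlapped, and small replicate 3 held the highest value of all 12 pools. Without that pool its log2 fold change was 1.21, with a nominal limma p of 0.0045, and 2 members met the call. The share of all transcripts called without that pool is not given here.

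Comparing small with spontaneous follicles asked the same of the surge and of estrus, together with the larger follicles of the spontaneous classification. In oocytes 3 ribosomal proteins, RPL34, RPL18 and RPS28, were higher in spontaneous pools by the same call and none was lower, where 0.774% of all transcripts met it and 0.526% met it in the higher direction. None passed an adjusted p of 0.05, nor did any other transcript of the oocyte table. At an unadjusted limma p under 0.05, 16 members were higher and none lower, where 2.91% of all transcripts were higher and 1.6% lower. In no member did the spontaneous pools lie above all small pools, as they did in 0.476% of all transcripts. The mean was higher in spontaneous pools for 82 of 85 members, where it was higher for 55.0% of all transcripts. The median log2 fold change was 0.45 over the members and 0.05 over all transcripts, and 0.47, 0.45 and 0.43 for the large subunit, the small subunit and the stalk. The exceptions were RPS19BP1, the binding protein, at -1.13, RPSA, the laminin receptor protein of the small subunit, at -0.16, and RPL30 at -0.05.

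RPL34 (ENSBTAG00000014226), a large subunit protein, ran from 33.4 to 115 CPM in small oocyte pools (median 49.9), and the spontaneous pools held 127, 99.9, 121 and 135 CPM. Small replicates 2 and 3, at 105 and 115 CPM, reached into the spontaneous range and the other 4 small pools held at most 54.0 CPM. The log2 fold change was 1.01 with SE 0.32, nominal limma p = 0.0041, adjusted limma p = 0.915 and exact permutation p = 0.019. RPL18 (ENSBTAG00000015388), also of the large subunit, ran from 242 to 491 CPM in small pools (median 283), and the spontaneous pools held 467, 356, 520 and 452 CPM. Small replicate 3 held the highest of the small values, and the other 5 small pools held at most 295 CPM, below all spontaneous pools. Its log2 fold change was 0.57 with SE 0.19, nominal limma p = 0.0055 and exact permutation p = 0.0429. RPS28 (ENSBTAG00000002468), a small protein of the small subunit at the mRNA exit, ran from 55.8 to 209 CPM in small pools (median 86.4), and the spontaneous pools held 182, 102, 337 and 195 CPM. The groups overlapped, and the log2 fold change was 0.96 with SE 0.33, nominal limma p = 0.0064, adjusted limma p = 0.927 and exact permutation p = 0.0714.

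These calls rested on single pools. Without small replicate 3 the count of members called was 12 and without spontaneous replicate 2 it was 11, whereas it was 1 without small replicate 4 or 6 and 0 without spontaneous replicate 3 or 4. For fits with a pool left out the shares of all transcripts called are not given here. Whether 12 or 11 members exceed them therefore cannot be said. The median fold change stayed positive, between 0.27 and 0.64, whichever pool was left out. Without a filter on low values 0 members were called. By edgeR and DESeq2 on the recovered reads 0 members passed as well, with nominal p of RPL34 at 0.017 and 0.013, of RPL18 at 0.014 and 0.012 and of RPS28 at 0.018 and 0.013.

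**Figure D4:**
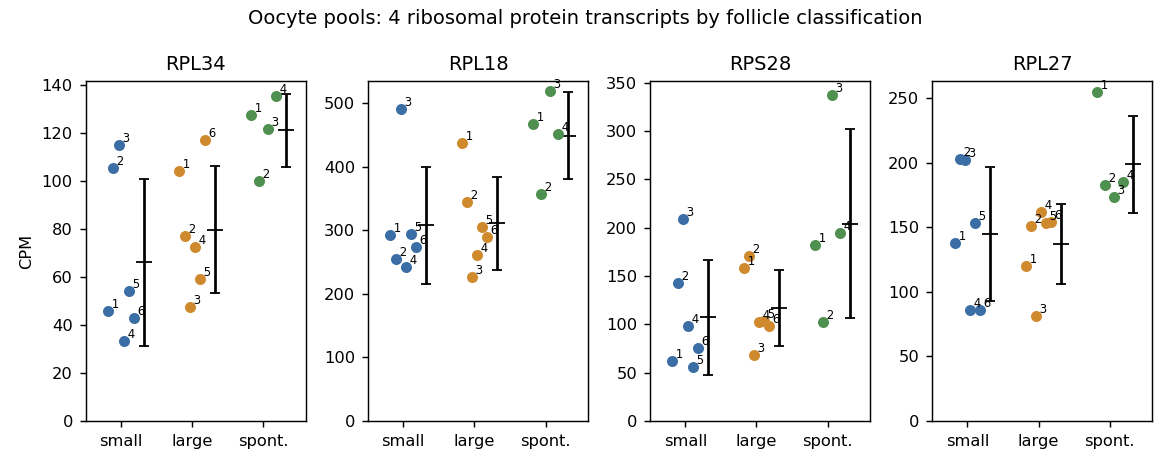
CPM of RPL34, RPL18, RPS28 and RPL27 in each oocyte pool (vertical axes from 0), by follicle classification, 1 point per pool with its replicate number, and bars at the mean ± SD. Small replicate 3 lies with the spontaneous pools for RPL34, RPL18 and RPS28, and the 4 spontaneous pools of RPL27 lie above all large pools.

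The comparison of large with spontaneous follicles gave 1 call. RPL18 ran from 226 to 437 CPM in large pools (median 298), against 467, 356, 520 and 452 CPM in the spontaneous pools given above, with overlap through large replicate 1. Its log2 fold change was 0.55 with SE 0.17, nominal limma p = 0.0039, adjusted limma p = 0.925 and exact permutation p = 0.019, where 0.943% of all transcripts passed the nominal threshold and 0.397% did so in this direction. At an unadjusted limma p under 0.05, 13 members were higher in spontaneous pools and none lower, where 2.49% of all transcripts were higher and 2.38% lower. The mean was higher for 76 of 85 members, against 50.9% of all transcripts, and the median log2 fold change was 0.35 against 0.01. Of the 9 with a lower mean, RPS14 was the farthest at -0.48.

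RPL27, a large subunit protein, ran from 80.9 to 162 CPM in large pools (median 152), and the spontaneous pools held 254, 182, 173 and 185 CPM. The groups did not overlap, as was true of 0.417% of all transcripts in this direction. Its log2 fold change was 0.56 with nominal limma p = 0.016 and exact permutation p = 0.0048. RPL13A, named here after its values were seen, was the other member without overlap, with 19.7 to 54.9 CPM in large pools and at least 58.3 CPM in spontaneous pools. RPS28 had a log2 fold change of 0.74 with nominal limma p = 0.013 and exact permutation p = 0.0476. The count of members called was 12 without spontaneous replicate 2, 3 without large replicate 2, 2 without large replicate 1 or 6 or spontaneous replicate 1, and 0 without large replicate 3 or 4 or spontaneous replicate 3 or 4. It was 0 without a filter on low values, 2 by edgeR and 5 by DESeq2. The shares of all transcripts called in these other settings are not given here, so the counts cannot be set against them.

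Over the 3 classifications, the highest mean was that of the spontaneous pools for 75 of the 85 oocyte rows, where this held for 39.1% of all transcripts, and the lowest was that of the small pools for 58, where this held for 38.2%. These comparisons share their spontaneous or small pools, so they are not independent of each other.

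**Figure D5:**
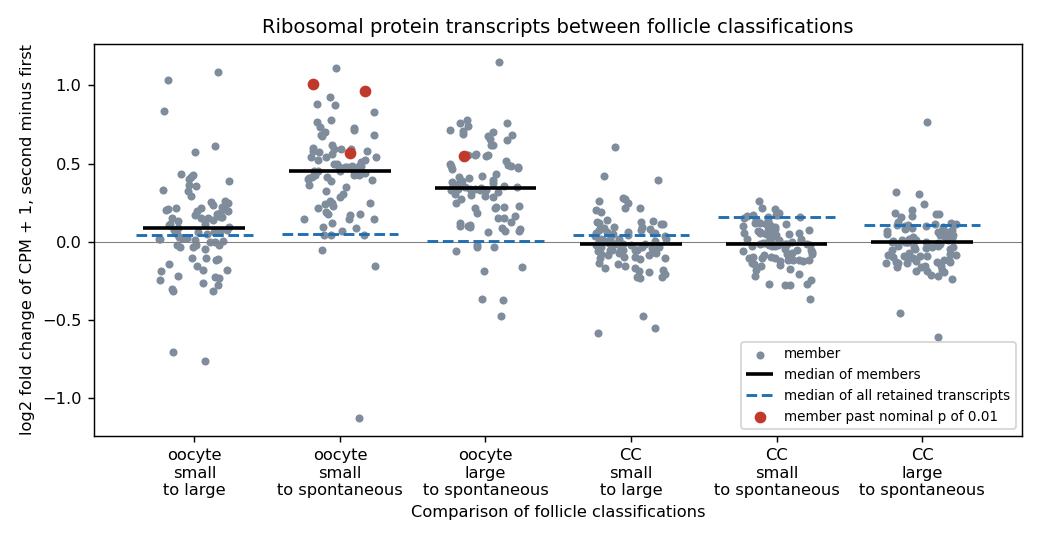
Log2 fold changes (vertical axis) of the retained ribosomal protein rows in the 3 comparisons of follicle classifications, oocytes beside CC, 1 point per row, with black lines at the medians of members, dashed lines at those of all retained transcripts and red points for called members. In oocytes the members' medians are 0.09, 0.45 and 0.35, and in CC they lie at -0.01, -0.01 and -0.003.

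In CC none of the 89 retained rows met the call in any comparison of follicle classifications. The nominal threshold was passed by 0.813% of the 9712 tested transcripts between small and large, by 2.38% between small and spontaneous and by 1.66% between large and spontaneous pools. At an unadjusted limma p under 0.05, 1 member was lower in large than in small pools, 1 was lower in spontaneous than in small pools and 1 was higher in spontaneous than in large pools. In the same order of comparisons, 3.08%, 7.87% and 5.95% of all transcripts were higher at this level and 0.916%, 0.68% and 1.12% lower. The edgeR counts of members called were 0 in each, and those of DESeq2 were 0, 1 and 0. The mean was higher in the second-named class for 40, 39 and 42 of the 89 members, against 56.0%, 71.9% and 65.6% of all transcripts. The median log2 fold change of members was -0.01, -0.01 and -0.003 in these comparisons. All retained transcripts had medians of 0.05, 0.16 and 0.11, which fell to 0.01 in the last 2 comparisons under median-of-ratios scaling, and there the members' medians were -0.07, -0.17 and -0.10. The sign of the members' median was negative under every scaling tried and turned positive when single pools were left out, with a range over all 3 comparisons from -0.09 to 0.08. The highest class mean was that of small, large and spontaneous pools for 36, 28 and 25 rows, where these shares were 19.1%, 27.1% and 53.9% over all CC transcripts.

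RPL35A, a large subunit protein, had the smallest p in each CC comparison with small pools. It ran from 179 to 252 CPM in small pools (median 227) and from 107 to 258 CPM in large pools (median 146), and from 134 to 215 CPM in spontaneous pools. The classes overlapped, with log2 fold changes against small pools of -0.48 (nominal limma p = 0.040) in large and -0.36 (nominal limma p = 0.045, exact permutation p = 0.0303) in spontaneous pools. Without large replicate 5 the first was -0.62 with a nominal limma p of 0.0070, and under median-of-ratios scaling the second was -0.52 with a nominal limma p of 0.0095, so that RPL35A met the call in these settings. RPL10 ran from 2682 to 3011 CPM in small and from 3126 to 4337 CPM in large pools, without overlap. Its log2 fold change was 0.28, with nominal limma p = 0.098 and exact permutation p = 0.0022, and all CC transcripts had such a gap in 0.206% of cases. A low second row under the symbol RPL15 (ENSBTAG00000040367) ran from 3.98 to 8.40 CPM in large and from 8.53 to 13.8 CPM in spontaneous pools, a gap that 0.762% of CC transcripts had, with a log2 fold change of 0.77 at nominal limma p = 0.022 and exact permutation p = 0.0043.

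Among the neighbouring lists, FAU, RACK1, the 13 TOP mRNA rows and the translation regulators had 0 calls in all 6 comparisons by limma, and 2 of these transcripts had an unadjusted limma p under 0.05, both between large and spontaneous pools. FAU was the one in oocytes (log2 fold change 0.72, exact permutation p = 0.0762) and the elongation factor gene EEF2 the one in CC (-0.34, exact permutation p = 0.0065); both are named after their values were seen. Among ribosome assembly factors NPM1, 1 of 35, was higher in large than in small oocyte pools, where 0.447% of all transcripts were called higher (log2 fold change 0.32, nominal limma p = 0.0058, adjusted limma p = 0.997, exact permutation p = 0.0065). In CC WDR12, a factor of large subunit assembly, was the one of 35 that was lower in large than in small pools, where 0.124% of all transcripts were called lower (log2 fold change -0.91, nominal limma p = 0.0070, exact permutation p = 0.0043) and higher in spontaneous than in large pools (0.94, nominal limma p = 0.0042, exact permutation p = 0.0130). FBL, the rRNA methyltransferase fibrillarin, was also higher in spontaneous than in large CC pools (0.75, nominal limma p = 0.0038, exact permutation p = 0.0108), so that 2 of 35 assembly factors were, where 1.45% of all transcripts were called higher. Of the mitochondrial ribosomal proteins, MRPL19, MRPL39, MRPL52 and MRPS23, 4 of 77, were higher in spontaneous than in large CC pools, against the same 1.45%, and MRPL39, 1 of 77, was also higher than in small ones, against 2.28%. In oocytes MRPL48, 1 of 72, was higher in large than in small pools (log2 fold change 2.46, exact permutation p = 0.0043), against 0.447%. MRPL10, 1 of 72, was higher in spontaneous than in small pools (2.11, exact permutation p = 0.0095), against 0.526%. No adjusted limma p in this list was below 0.997 in the first and 0.915 in the second of these comparisons. Levels were low, with oocyte means of 7.61 CPM for MRPL48 (0.17 to 22.2) and 13.5 CPM for MRPL10 (0.73 to 38.1). The median log2 fold changes of the mitochondrial ribosomal proteins in CC were -0.10, 0.14 and 0.27, beside those of all transcripts given above. In oocytes they were 0.01, 0.26 and 0.25, against 0.05, 0.05 and 0.01 over all transcripts. Their mean was higher in spontaneous than in small oocyte pools for 49 of 72, against 55.0% of all transcripts. It was also higher than in large ones for 49 of 72, against 50.9%. Their summed share of reads was 0.380% to 0.422% in spontaneous oocyte pools, 0.327% to 0.368% in small and 0.295% to 0.363% in large ones. A higher level in spontaneous oocyte pools was thus not particular to the cytosolic proteins.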

How the data were processed

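The tables held CPM per gene for 16 oocyte and 17 CC pools. Per the study's methods, RNA was amplified (Ovation RNA-Seq V2), sequenced single-end, trimmed, aligned with Hisat2 to UMD3.1 and counted with FeatureCounts on Ensembl genes, and the authors deposited the CPM, normalized per table. Strand and multi-mapping settings are not given in the sources used here. Whole reads were recovered from the CPM steps for 100% of values (tolerance 0.01), and the self-test of the fits used simulated counts.

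Members and gene lists (FAU and RACK1, TOP mRNAs, assembly factors, regulators, mitochondrial ribosomal proteins, cell markers) were chosen with earlier results of these data known. Members were joined by Ensembl identifier, since 92 carried a symbol in the oocyte table and 56 in the CC table. Transcripts reaching 5 CPM in 4 or more oocyte pools, or 5 or more CC pools, were tested pairwise between follicle classifications on log2(CPM + 1) by limma 3.58.1 (trend, R 4.3.3), so fold changes of low genes are understated, with Benjamini-Hochberg adjustment over all retained transcripts. A call was a nominal p of at most 0.01, and where small oocyte pools were compared it had to hold, in the same direction, without their replicate 3 as well. Named were members called, or else the 3 of smallest p, the 5 most read per cell type, the 5 most raised and 5 most lowered in oocytes relative to the other members, listed paralogs with their parents, and called genes of the other lists. Exact permutation tests were two-sided and compared mean CPM. Alternatives were pseudocount, filter, scaling, all classifications in 1 fit, replicate block, edgeR 4.0.16 and DESeq2 1.42.0 on recovered reads, and each pool left out. A few named genes are not reported here. Sequences and positions were not used here.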

Additional observations from a re-analysis of the deposited data

Results flagged for a closer look

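Of 198 group values checked for a pool far from the others of its group, 20 stood apart by Dixon's criterion, which chance alone meets in about 1 of 20 groups. Of these, 9 belong to small oocyte replicate 3, the shallowest oocyte library, and all were the highest of their group: RPL18 at 491 CPM, RPL23 at 196 CPM, RPL37A at 210 CPM, RPL9 at 134 CPM, RPS3A at 237 CPM, RPS4Y1 at 31.3 CPM, and the RPL36A rows at 89.9, 79.5 and 10.6 CPM. Without this pool the members called between small and spontaneous oocyte pools numbered 12 instead of 3, and the share of all transcripts called without it is not given here.

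In large oocyte pools, replicate 3 had the lowest summed share, 0.737%, replicate 6 the highest RPL12 (second row, 15.0 CPM), RPS18 (46.9 CPM) and RPS4Y1 (47.5 CPM), and replicate 2 the highest RPL4 (362 CPM). In spontaneous oocyte pools, replicate 1 was highest for RPL27 (254 CPM) and replicate 3 for RPS27 (283 CPM). In CC, the values that stood apart were RPL9 in small replicate 2 (833 CPM), RPS27 in large replicate 5 (1782 CPM), the second RPL15 row in spontaneous replicate 1 (13.8 CPM), and RPS4 in spontaneous replicate 5 (696 CPM).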

How the results depend on the processing

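Within a cell type the replicate numbers do not pair the pools of different classifications: correlations of same-numbered pools ran from -0.19 to 0.22, and oocyte pools were not set against CC pools. With the replicate number as a block the members called between small and spontaneous, and between large and spontaneous, oocyte pools were 0 and 0, and the members' median log2 fold changes 0.28 and 0.37. Without a filter the counts were 0 and 0, by edgeR 0 and 2, and by DESeq2 0 and 5. With each pool left out in turn they ran from 0 to 12 in both comparisons, from 0 to 2 between small and large oocyte pools and from 0 to 1 between small and large CC pools. Shares of all transcripts called in these alternative settings are not given here. Between small and spontaneous CC pools 1 member, RPL35A, was called under median-of-ratios scaling, without mitochondrial genes and by DESeq2. Without mitochondrial genes the CC shares had medians of 6.55%, 6.46% and 6.13%, and without RPL10 that of small CC pools was 4.78%. The cause of these changes was not tested.

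No member's fold change reversed in direction among those named. The 4 paralog differences kept their direction and their side of the threshold, with ranges of 4.71 to 4.86, 2.47 to 2.66, 1.53 to 1.78 and 1.22 to 1.46 when each pool was left out. The CC pools hold fewer reads than the oocyte pools, 3 reads being 0.52 to 1.57 CPM in CC and 0.17 to 0.39 CPM in oocytes, which limits statements on rows of a few CPM such as RPS29 and the second RPL15 row.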
